A study of Mus musculus with 14 samples.

Results

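The clustered protocadherins are a family of cadherin-like adhesion proteins encoded in the alpha, beta and gamma clusters, which lie in tandem on mouse chromosome 18. Members were taken by symbol, as every gene row whose name starts with Pcdha, Pcdhb, Pcdhga, Pcdhgb or Pcdhgc and holds a number. The rule found 45 genes among 27781 gene rows, 8 of the alpha, 22 of the beta and 15 of the gamma cluster. The gamma genes comprised 7 of the A type, 7 of the B type and Pcdhgc4 as the only C-type gene analysed here.

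Expression was measured by SmartSeq RNA sequencing of neuronal nuclei prepared from dissected medial entorhinal cortex (MEC), the parahippocampal area that holds grid cells. The study set aged mice against young mice, with 7 libraries of each group, and placed the transcriptomes beside electrophysiological recordings. Age is the only factor that the labels give, without a number of months, and it is entered there under the heading of genotype. The sources used here state neither strain nor sex, nor whether the libraries of a group come from different mice, so p-values reflect the spread among these libraries and nothing wider.

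Each mature neuron expresses a small combination of clustered protocadherins. In the alpha and gamma clusters every variable exon has its own promoter and is spliced to constant exons shared by the whole cluster, whereas each beta gene is complete on its own. Promoters are chosen stochastically in most neurons through CTCF and cohesin, and the unchosen ones carry DNA methylation and repressive chromatin. The C-type genes are an exception, being switched on more uniformly. The proteins bind identical combinations on a facing membrane, and this recognition lets the branches of a neuron tell self from non-self. In bulk nuclei, therefore, a member's value adds up many cells with different choices, and fewer cells using a promoter cannot be told apart from less RNA in each cell that uses it.

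All values are normalized values per gene as the authors deposited them, in arbitrary units that make the typical gene equal across libraries, and read depths are unknown. The values of a library summed to between 25058282 and 37421755 over all genes, and 21152 to 25615 genes lay above 0. The libraries fell into sets that crossed age. The X-inactivation RNA Xist averaged 18806 in 5 aged libraries (numbered 3, 4, 5, 6 and 7) and 2 young ones (2 and 3), and 0.733 in 2 aged libraries (12 and 13) and 5 young ones (11, 16, 17, 18 and 19). Xist-positive libraries also had fewer genes above 0 (21152 to 22812, against 25263 to 25615 in Xist-negative libraries) and less of the nuclear RNA Malat1 (a mean of 15723 against 115335). Age was therefore examined over all libraries, then with set membership as a second term, and within each set. Of 33 markers of neurons, glia and vessels, 33 were in the table and none was at 0 in all libraries. Summed neuronal markers reached 99085 to 184386 in aged and 115383 to 156931 in young libraries, far above the glial sums.

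In aged libraries the summed level of the whole family was 9270 ± 887, against 7274 ± 932 in young libraries (SD, n = 7 each), with overlapping ranges of 8134 to 10462 in aged and 6166 to 8736 in young. That level was 0.0323% of the summed values of all genes in aged and 0.0255% in young libraries. Each cluster had the higher mean in aged libraries. Summed alpha genes reached 1408 ± 291 in aged libraries (1041 to 1753) and 1165 ± 154 in young libraries (951 to 1384). The beta genes summed to 2914 ± 354 in aged libraries (2492 to 3325) and 2238 ± 412 in young libraries (1478 to 2818). The gamma genes summed to 4948 ± 999 in aged libraries (3652 to 6929) and 3871 ± 771 in young libraries (2807 to 5077; SD and n = 7 throughout). In all 3 clusters the ranges of the ages overlapped.

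The sums did not move alike in the library sets. Beta sums averaged 3006 in aged and 1928 in young Xist-positive libraries, and 2685 in aged and 2361 in young Xist-negative libraries. Gamma sums averaged 4670 in aged and 4228 in young Xist-positive libraries, and 5645 in aged and 3729 in young Xist-negative libraries, where the 2 aged libraries lay far apart at 6929 and 4360. Alpha sums averaged 1551 in aged and 1316 in young Xist-positive libraries but 1051 in aged and 1105 in young Xist-negative libraries. The aged mean was thus higher in both sets for beta and gamma and in the Xist-positive set alone for alpha. The difference between sets was not tested for these sums.

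**Figure D1:**
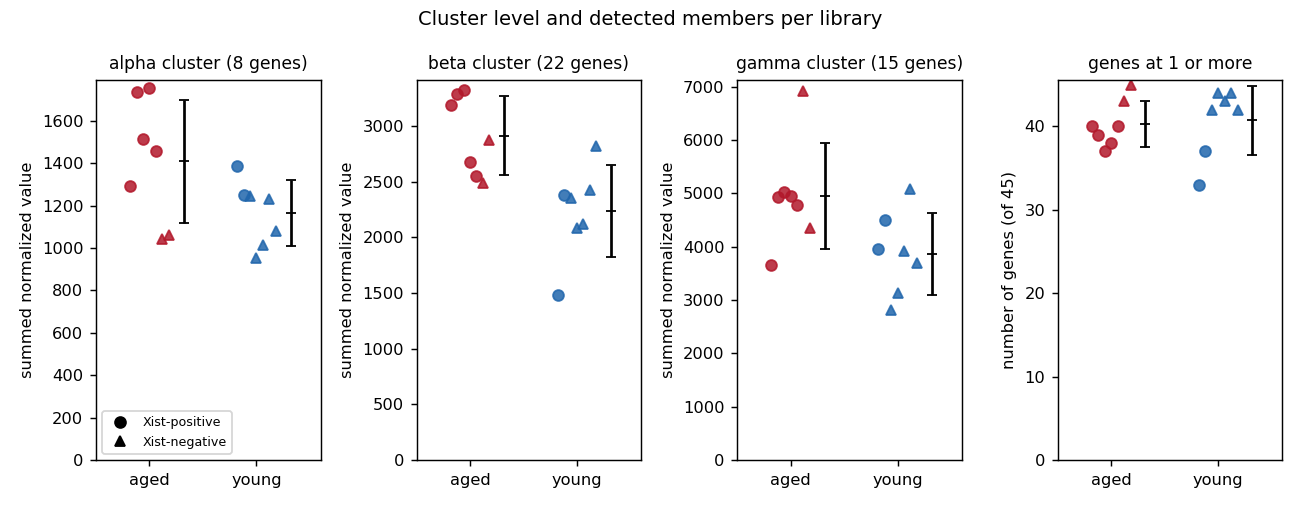
Summed normalized value of the alpha, beta and gamma genes, and the number of the 45 genes at a value of 1 or more, in each aged and young library (circles Xist-positive, triangles Xist-negative; bars are the mean ± SD, n = 7). The aged mean is higher for each cluster with overlapping ranges, and the number of genes detected follows the library set, at 33 to 40 in Xist-positive and 42 to 45 in Xist-negative libraries.

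Most of the family was found in every library. Between 37 and 45 of the 45 genes reached a value of 1 in aged libraries (median 40), against 33 to 44 in young libraries (median 42). The order by age turned round within the sets, with 37 to 40 in aged and 33 and 37 in young Xist-positive libraries, and 43 and 45 in aged and 42 to 44 in young Xist-negative libraries. All 8 alpha genes reached 1 in every library. Across the 14 libraries 29 genes were above 0 throughout, and the 16 listed at 0 somewhere were 9 beta and 7 gamma genes. The 2 young Xist-positive libraries showed the fewest beta genes, 13 and 16 of 22, against 18 or 19 in the 5 aged Xist-positive libraries.

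**Figure D2:**
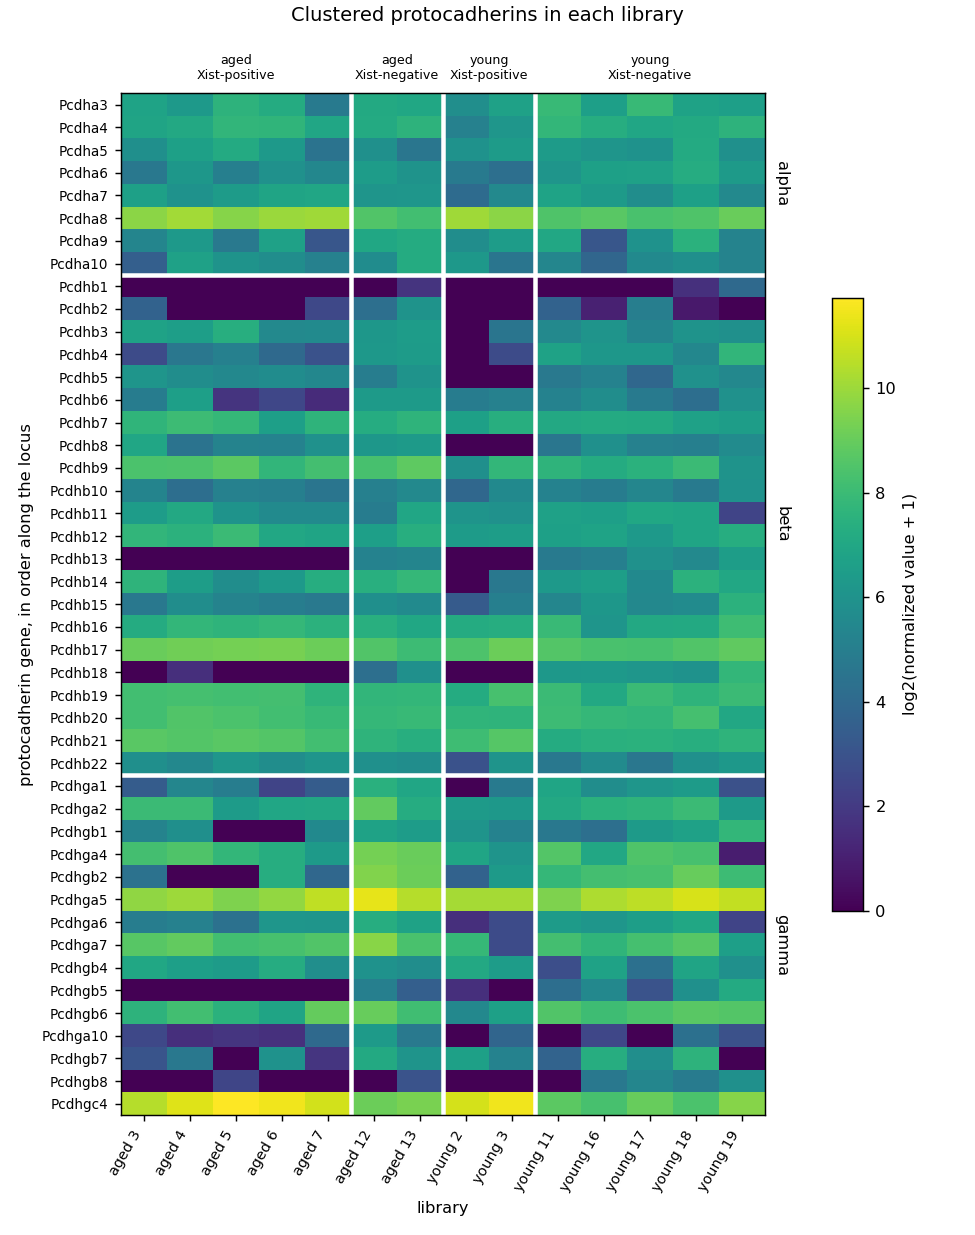
Normalized value of each of the 45 genes, as log2(value + 1), in order along the locus (rows) and by library (columns, grouped by age and library set). Pcdha8, Pcdhga5 and Pcdhgc4 form the bright rows, and Pcdhb13 is at 0 in all 7 Xist-positive libraries.

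The level of a member per kilobase of annotated exon differed widely within a cluster. Alpha genes averaged 12.5 to 124 normalized units per kilobase over the 14 libraries, with a median of 14.6, and Pcdha8 held the 124. Beta genes averaged 0.539 (Pcdhb1) to 97.2 (Pcdhb17) per kilobase, with a median of 15.9, and Pcdhb9 came second at 82.3. Gamma genes averaged 2.53 (Pcdhgb8, annotated as a polymorphic pseudogene) to 282 (Pcdhga5) per kilobase, with a median of 14.2 and Pcdhgc4 at 259. A few members therefore carried much of the alpha and gamma level. The per-kilobase scale covers 44 of the 45 genes, since Pcdha10 matched no single annotated gene. Constant exons are shared, so only 45.1 to 50.3% of the exonic bases of an alpha gene and 33.2 to 68.5% of those of a gamma gene belonged to no other member, against 90.3 to 100% for beta. The sources used here do not state how reads in shared or near-identical sequence were assigned. Of the 31-base stretches in a member's transcripts, 7.77 to 38.3% occurred in no other gene for alpha, 33.1 to 100% for beta and 0.617 to 62.6% for gamma members. Values of the members at the low ends, Pcdha4, Pcdhb12 and Pcdhga10, are the least certain.

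The first comparison asked which members differed between aged and young MEC nuclei. Values were compared as log2(value + 1) in limma over all 24554 genes that reached 1 in at least 7 libraries, a set that included 43 of the 45 members; Pcdhb1 and Pcdhgb8 did not reach it. No member passed a Benjamini-Hochberg adjusted p of 0.05 with age as the only term, where 0.00407% of all genes tested did. At an unadjusted p under 0.05, 2 members were higher in aged libraries (4.65%, against 6.5% of all genes tested) and 1 was lower (2.33%, against 17.6%). Differences are aged minus young, and the log2(value + 1) scale understates the change of low genes. The median difference was 0.17 over the 8 alpha genes, 0.40 over the 21 beta genes and 0.36 over the 14 gamma genes tested, against -0.25 over all genes tested. The difference was above 0 for 28 of the 43 members and for 37.2% of all genes. With upper quartiles equalised, a scaling that took the median of all genes to -0.45, the alpha median was -0.027. The beta median was then 0.20 and the gamma median 0.16.

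When the library set was added to the model no member passed either (minimum adjusted p = 0.142 in limma, for Pcdhb8), where 0.00815% of all genes did. At an unadjusted p under 0.05, 12 members were higher in aged libraries and 0 were lower, or 27.9% and 0.0%, against 4.03% and 9.03% of all genes tested. The 12 were Pcdha4, 6 beta genes (Pcdhb2, Pcdhb3, Pcdhb5, Pcdhb8, Pcdhb9 and Pcdhb14) and 5 gamma genes (Pcdhga2, Pcdhga6, Pcdhga7, Pcdhga10 and Pcdhgb6). Members share sequence, and reads may have been shared too, so these are not 12 independent observations. The medians were 0.26 for alpha, 0.34 for beta and 0.53 for gamma genes, against -0.16 over all genes, and 34 of the 43 differences were above 0. Leaving out each library in turn in this model gave 8 to 12 members at an unadjusted p under 0.05 on the aged-higher side and 0 on the lower side, while the share of all genes ran between 2.49 and 5.62%. The beta median was 0.17 without young library 2. The alpha median was 0.15 without aged library 4 or 6, 0.17 without young library 16, 0.39 without young library 18 and 0.41 without aged library 7. With estimated library weights in place of equal ones, and age alone, 10 members passed an adjusted p of 0.05 (5 higher and 5 lower in aged libraries), as did 53.1% of all genes. Summed oligodendrocyte markers, which neuronal nuclei should hold at low levels, reached 4664 to 16245 in aged and 3060 to 8910 in young libraries, and astrocyte markers 2565 to 8860 in aged and 3583 to 6350 in young; their part in the age differences was not tested.

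**Figure D3:**
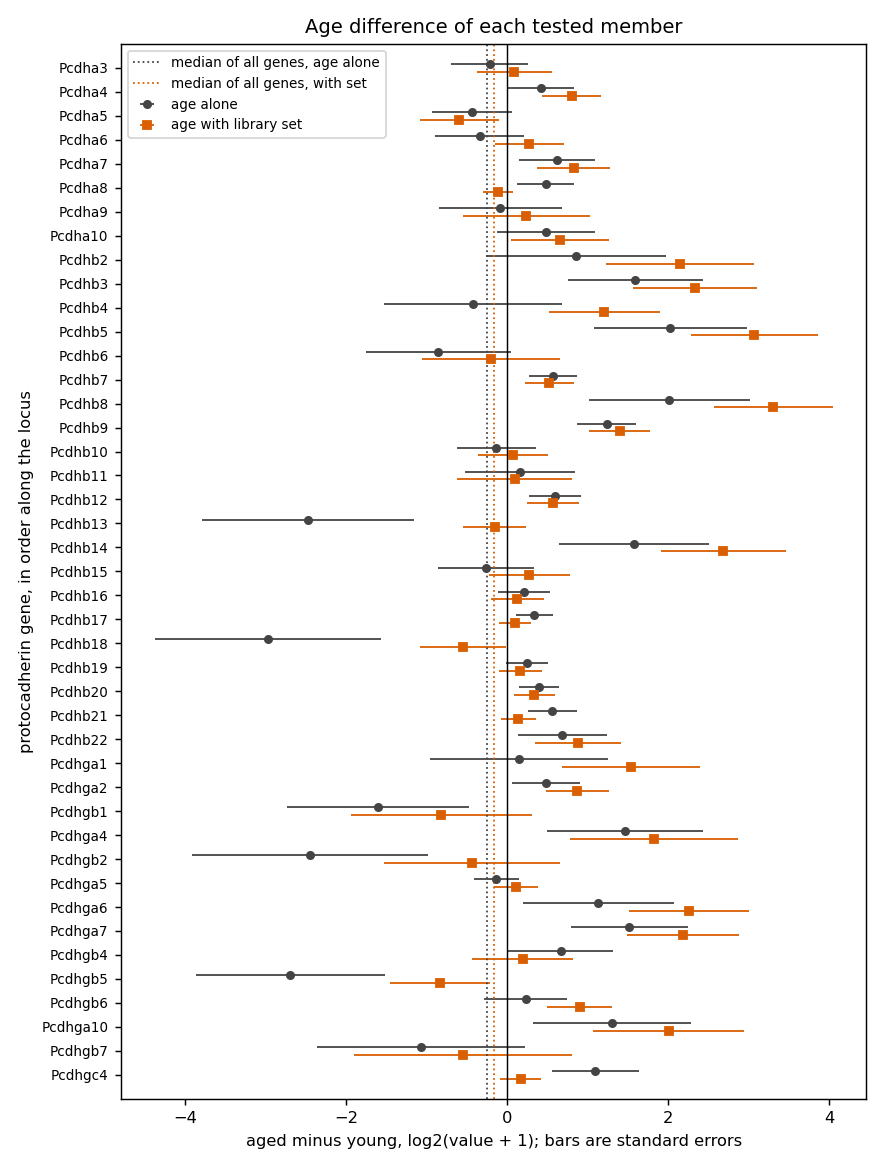
Aged minus young difference of the 43 tested members in log2(value + 1), with its standard error, in order along the locus, with age as the only term (black) and with the library set added (orange). Dotted lines mark the medians of all genes tested, -0.25 and -0.16; no member passed an adjusted p of 0.05 in limma in either fit.

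In the authors' deposited table, 1 of the 41 members with an adjusted p was past 0.05, Pcdhb9, where 0.838% of 21253 genes were past it on the aged-higher side. Pcdhb9 had there a log2 fold change of 1.21 with a standard error of 0.37 and an adjusted p of 0.0482. Pcdhb8, with a log2 fold change of 3.47 and an adjusted p of 0.0961, was the only other member under 0.1 in the authors' deposited table. That table gives an unadjusted p under 0.05 and a higher level in aged libraries for 12 of the 45 members (26.7%, against 4.29% of all genes with a p), and a lower level for 0 (against 10.2%). It rests on the same libraries and is no independent result. For Pcdhgc4 its fold change was 0.16, against 1.09 in limma with age alone and 0.17 with the library set. For Pcdha8 these values were -0.11, 0.48 and -0.11, and for Pcdhb9 1.21, 1.24 and 1.40. Which terms the authors' model held was not tested.

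Among the beta genes, whose proteins bind like those of the other clusters but lack the shared intracellular constant domain, Pcdhb9 had the smallest p with age alone, and Pcdhb8 with the library set. Pcdhb9 (chromosome 18, 37400855 to 37403909, plus strand, mm10, a single exon) read 337, 351, 435, 209, 298, 320 and 448 in aged libraries 3, 4, 5, 6, 7, 12 and 13. In young libraries 2, 3, 11, 16, 17, 18 and 19 it read 56.1, 217, 200, 150, 180, 257 and 64.1. Only aged library 6, at 209, lay below any young library, so the groups overlapped narrowly. The aged mean was 342 ± 81.7 and the young mean 160 ± 76.0 (SD, n = 7 each). The difference was 1.24 (SE 0.37, limma adjusted p = 0.182), or 1.40 with the library set (SE 0.38, adjusted p = 0.196). The Xist-positive libraries alone gave 1.51 and the Xist-negative ones 1.28. Leaving out any single library gave 1.02 to 1.38 with age alone.

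Pcdhb8 and Pcdhb5 were at 0 in both young Xist-positive libraries. Pcdhb8 (chromosome 18, 37355121 to 37358604, plus strand, mm10) read 123, 20.8, 36.5, 36.3 and 60.3 in the aged Xist-positive libraries. In Xist-negative libraries it read 73.9 and 83.8 in aged and 23.0, 57.5, 34.5, 32.1 and 50.1 in young. Both sets thus had all aged libraries above all young ones for Pcdhb8, although the groups overlapped when the sets were put together. Pcdhb8 was named for its small p in these data, and the share of all genes with that order was not counted. Pcdhb5 (chromosome 18, 37320381 to 37323915, plus strand, mm10) read 67.9, 52.2, 43.3, 50.6 and 41.8 in the aged Xist-positive libraries. In Xist-negative libraries Pcdhb5 read 30.8 and 63.7 in aged and 25.6, 35.3, 14.2, 60.1 and 42.9 in young, which overlap. In all, 7 members were at 0 in both young Xist-positive libraries. Of those, only Pcdhb8 and Pcdhb5 were above 0 in all 5 aged Xist-positive libraries, and 2 were at 0 in all 5. The share of all genes with this pattern was not counted, and no fold is given against a group listed at 0.

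Over all libraries the limma difference was 2.01 for Pcdhb8 (SE 0.998, adjusted p = 0.22) and 2.03 for Pcdhb5 (SE 0.95, adjusted p = 0.206). With the library set it was 3.30 for Pcdhb8 (SE 0.74, adjusted p = 0.142) and 3.07 for Pcdhb5 (SE 0.79, adjusted p = 0.171), values that depend on the pseudocount because of the zeros. Within the Xist-positive libraries alone Pcdhb5 passed (difference 5.68, limma adjusted p = 0.00858), the only member to do so, where 0.00815% of all genes were called on that side. That call rests on 2 young libraries. At an unadjusted p under 0.05, 13 members were higher and 0 lower in aged Xist-positive libraries (2.91% and 6.73% of all genes), and 4 were higher and 0 lower in aged Xist-negative libraries (2.13% and 3.34%), where no member passed the adjustment (0.0204% of all genes did). The interaction of age and library set was 5.23 (SE 0.91, limma adjusted p = 0.449) for Pcdhb5 and 4.51 (SE 0.98, adjusted p = 0.771) for Pcdhb8, so the sets were not shown to differ in their age effect. No gene of the 24554 passed the interaction test (0.0%), in which the unadjusted p of Pcdhb5, 4.14e-05, was the smallest of all genes. At an unadjusted p under 0.05, 7 of the 43 members (16.3%, against 1.35% of all genes) had a larger difference in the Xist-positive libraries and 0 had a smaller one (against 2.27%). The 7 were Pcdha4, Pcdha7, Pcdhb3, Pcdhb5, Pcdhb8, Pcdhb14 and Pcdhgb6, and they rest on the same 2 young Xist-positive libraries.

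Pcdhb14, named after its values were seen, and Pcdhb3 had a similar order of libraries. Pcdhb3 averaged 88.3 ± 39.6 in the aged group and 42.1 ± 24.3 in the young group (SD, n = 7 each), with 0 in young library 2 and 22.3 in young library 3 as its lowest values. The difference was 1.59 (SE 0.83, limma adjusted p = 0.233), or 2.34 with the library set (SE 0.77, adjusted p = 0.257). Pcdhb14 averaged 138 ± 64.6 in aged and 79.5 ± 63.8 in young libraries, again with 0 in young library 2. For both genes, as for Pcdhb5 and Pcdhb8, the 2 young Xist-positive libraries were the lowest of all 14.

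**Figure D4:**
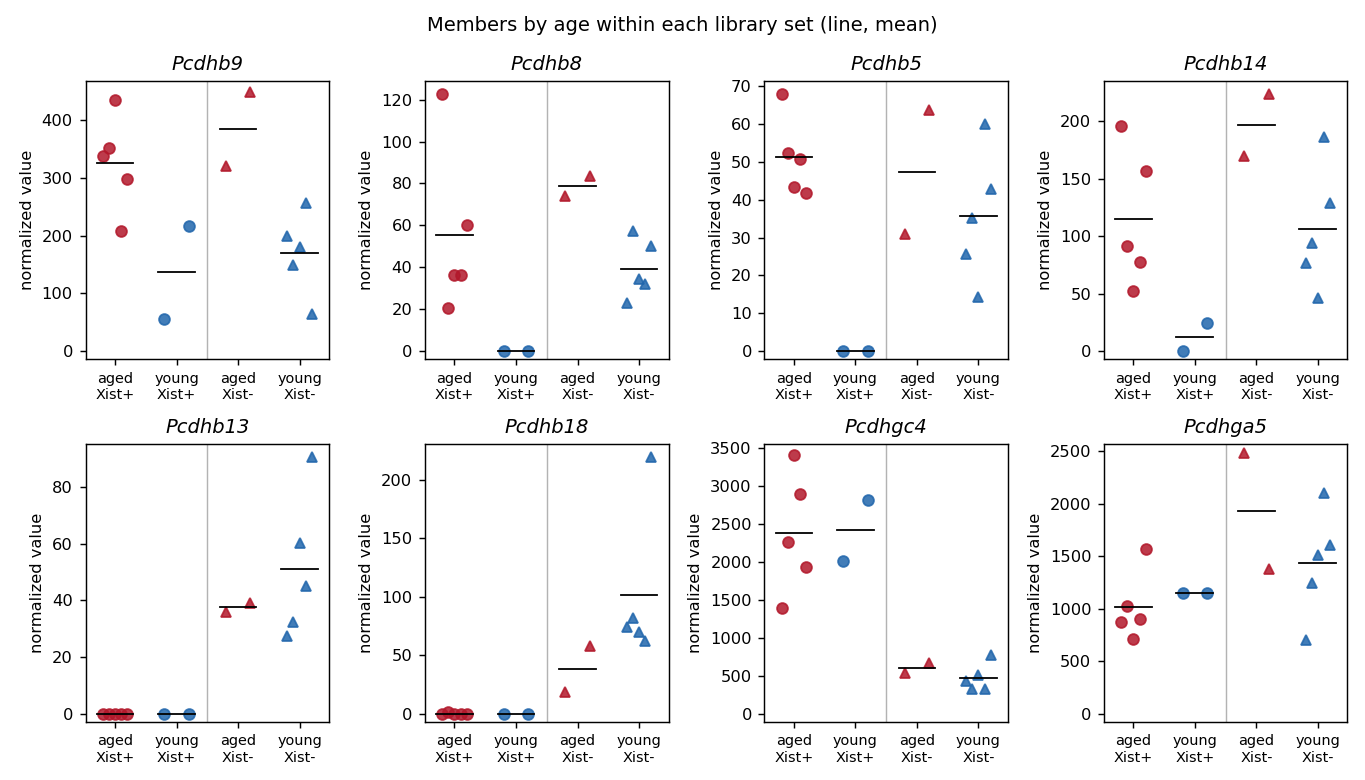
Normalized value of 8 members in each library, by age within the Xist-positive (circles) and Xist-negative (triangles) libraries; lines are means. Pcdhb8 and Pcdhb5 are at 0 in both young Xist-positive libraries, Pcdhb13 is at 0 in all 7 Xist-positive libraries, and Pcdhgc4 lies higher in the Xist-positive libraries at both ages.

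The abundant Pcdhb17 and Pcdhb21 had smaller differences. Pcdhb17 ranged between 265 and 650 in aged libraries (median 548) and between 321 and 546 in young ones (median 378), which gave 0.34 (SE 0.23, limma adjusted p = 0.334), or 0.10 with the library set. Pcdhb21, which overlaps Pcdhb22 in the annotation, averaged 324 ± 108 in aged libraries and 218 ± 86.2 in young ones (SD, n = 7 each), which gave 0.56, or 0.14 with the library set. Pcdhb18 (chromosome 18, 37489465 to 37494505, plus strand, mm10) had the most negative difference of the family, -2.97 (SE 1.40, limma adjusted p = 0.207), or -0.55 with the library set (SE 0.53, adjusted p = 0.666). All these differences lay nearer 0 once the set was in the model. The other 13 tested beta genes had differences between -2.48 (Pcdhb13) and 0.85 (Pcdhb2) with age alone, and the smallest limma adjusted p among them was 0.234 (Pcdhb7). Pcdhb1, which was not tested, read 0 to 2.37 in aged and 0 to 15.1 in young libraries.

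In the alpha cluster 4 of 8 differences were above 0, and 6 of 8 with the library set. Pcdha8, the most abundant alpha gene, read 837, 1105, 763, 987, 1081, 370 and 292 in aged libraries 3, 4, 5, 6, 7, 12 and 13. In young libraries 2, 3, 11, 16, 17, 18 and 19 it read 1061, 814, 357, 422, 324, 356 and 530. The high libraries were the Xist-positive ones in both groups. Its age difference was 0.48 (SE 0.36, limma adjusted p = 0.379), or -0.11 with the library set (SE 0.18, adjusted p = 0.809). Pcdha4 averaged 159 ± 41.7 in the aged group and 133 ± 64.0 in the young group (SD, n = 7 each), with its lowest values, 34.3 and 71.1, in the 2 young Xist-positive libraries. Its difference was 0.42 (SE 0.41, limma adjusted p = 0.508), or 0.80 with the library set (SE 0.37, adjusted p = 0.365). Pcdha7 averaged 89.0 ± 24.0 in aged and 64.8 ± 34.2 in young libraries, with a difference of 0.62 (limma adjusted p = 0.385). The differences of Pcdha3, Pcdha5 and Pcdha10 were -0.21, -0.43 and 0.48, each smaller than its standard error. Pcdha6 and Pcdha9 had differences of -0.34 and -0.08. None of the alpha genes separated aged from young libraries.

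The medians of the A-type and B-type gamma genes, which are interspersed along the gamma cluster, lay on different sides of 0. All 7 A-type genes had a difference above 0 with the library set (median 1.83), as did 6 of 7 with age alone (median 1.13). Of the 6 B-type genes tested, 2 were above 0 in each fit, with medians of -0.49 with the library set and -1.33 with age alone. Within the sets the B-type median was -1.35 in Xist-positive and 0.60 in Xist-negative libraries, while the A-type median was 1.15 in Xist-positive and 1.31 in Xist-negative libraries, so the opposite sides were not seen in the Xist-negative libraries. With estimated library weights and age alone 3 of 7 A-type differences and 1 of 6 B-type differences were above 0, and the B-type median was -1.91, so the opposite sides were not seen there either. Among the A-type genes Pcdhga7 read 412, 485, 285, 314, 370, 796 and 330 in aged libraries 3, 4, 5, 6, 7, 12 and 13. It read 230, 5.34, 297, 206, 309, 408 and 96.5 in young libraries 2, 3, 11, 16, 17, 18 and 19. Young library 3 was far below the rest, and the groups overlapped. The difference was 1.52 (SE 0.73, limma adjusted p = 0.21), or 2.19 with the library set (SE 0.70, adjusted p = 0.252). Pcdhga4 averaged 326 ± 198 in aged and 196 ± 153 in young libraries, with 0.896 in young library 19, and a difference of 1.46 (SE 0.97, limma adjusted p = 0.325).

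Pcdhga5 carried the most of any A-type or B-type gene and did not separate the ages. It averaged 1276 ± 609 in the aged group and 1353 ± 439 in the young group (SD, n = 7 each), which gave -0.14 (SE 0.28, limma adjusted p = 0.772), or 0.11 with the library set. Among the B-type genes Pcdhgb5 averaged 6.14 ± 12.2 in aged and 39.1 ± 51.4 in young libraries. The difference was -2.69 (SE 1.18, limma adjusted p = 0.193), or -0.83 with the library set (SE 0.62, adjusted p = 0.558). Pcdhgb5 was listed at 0 in all 5 aged Xist-positive libraries. Pcdhgb2 averaged 211 ± 304 in aged and 244 ± 164 in young libraries, and its difference was -1.89 in Xist-positive and 1.03 in Xist-negative libraries. The other 8 tested gamma genes of these types had differences between -1.60 (Pcdhgb1) and 1.30 (Pcdhga10) with age alone, and the smallest limma adjusted p among them was 0.357 (Pcdhgb1). Pcdhgb8, which was not tested, read 0 to 7.11 in aged and 0 to 58.2 in young libraries.

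Pcdhgc4, a C-type gene that in mice is needed for the survival of cortical interneurons, was among the most abundant members. It read 1388, 2263, 3398, 2896, 1933, 538 and 668 in aged libraries 3, 4, 5, 6, 7, 12 and 13, and 2010, 2818, 437, 322, 517, 335 and 771 in young libraries 2, 3, 11, 16, 17, 18 and 19. The aged mean was 1869 ± 1080 and the young mean 1030 ± 985 (SD, n = 7 each). The groups overlapped, and in each of them the Xist-positive libraries were the high ones. The age difference was 1.09 (SE 0.54, limma adjusted p = 0.219), or 0.17 with the library set (SE 0.26, adjusted p = 0.797).

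The second comparison set the members against the library split, with age in the model, because the split crossed the age groups unequally. Of the 43 members, 4 were higher (9.30%) and 15 lower (34.9%) in Xist-positive than in Xist-negative libraries at a limma adjusted p under 0.05. The 15 include Pcdhb13, which passed the filter only through the Xist-negative libraries. Among all genes tested 15.5% were higher and 36.5% lower, so the family's shares lay near the background. By cluster, 1 alpha, 2 beta and 1 gamma gene were higher, and 2 alpha, 8 beta and 5 gamma genes were lower. In 3 members every Xist-positive library lay above every Xist-negative one (4.88% of all genes did so), and in 5 members every one lay below (23.0%). No member separated every aged library from every young one, where 0.138% of all genes were higher and 0.0733% lower in that way.

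The members on the higher side were Pcdhgc4, Pcdha8, Pcdhb21 and Pcdhb17, each among the 4 highest of its cluster per kilobase. Pcdhgc4 averaged 2387 ± 687 in Xist-positive and 513 ± 166 in Xist-negative libraries (SD, n = 7 each), a difference of 2.16 (SE 0.26, limma adjusted p = 5.8e-06), and the sets did not overlap. Pcdha8 averaged 950 ± 142 in Xist-positive and 379 ± 77.9 in Xist-negative libraries, a difference of 1.38 (SE 0.18, limma adjusted p = 1.53e-05), also without overlap. Pcdhb21 averaged 367 ± 62.5 in Xist-positive and 176 ± 18.6 in Xist-negative libraries, a difference of 0.98 (SE 0.21, limma adjusted p = 0.001). Pcdhb17 differed by 0.56 (SE 0.20, limma adjusted p = 0.0295). General neuronal markers moved the same way, with 5 of 5 differences above 0 (median 0.51), 1 of them past the threshold, and sums of 125811 to 184386 in Xist-positive and 99085 to 153801 in Xist-negative libraries; their part was not tested. Summed inhibitory neuron markers overlapped, at 3342 to 13369 in Xist-positive and 3525 to 9872 in Xist-negative libraries.

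The lower side held low genes at or near 0 in the Xist-positive libraries, but also more abundant ones. Among the latter were Pcdhgb6, Pcdha4 and Pcdhb14, with means of 285, 146 and 109 over all libraries. Pcdhb18 read 0 to 1.98 in Xist-positive and 18.6 to 220 in Xist-negative libraries. Pcdhgb5 read 0 to 2.03 in Xist-positive and 7.13 to 144 in Xist-negative libraries. Pcdhb13 (chromosome 18, 37442500 to 37446209, plus strand, mm10), named after its values were seen, was listed at 0 in all 7 Xist-positive libraries and read 27.3 to 90.6 in Xist-negative libraries. Pcdhb18, Pcdhgb5 and Pcdhb13 reached the filter mainly or only through the Xist-negative libraries, so their values are a description. Pcdhb4 also did not overlap, at 0 to 33.9 in Xist-positive and 41.7 to 208 in Xist-negative libraries. Neither did Pcdhgb2, at 0 to 160 in Xist-positive and 221 to 737 in Xist-negative libraries. Markers of oligodendrocyte precursors moved with the split, with 2 of 2 lower in Xist-positive libraries at a limma adjusted p under 0.05 and sums of 99.5 to 660 in Xist-positive and 586 to 1392 in Xist-negative libraries. Oligodendrocyte markers were lower in 2 of 5, with sums of 3131 to 16245 in Xist-positive and 3060 to 15671 in Xist-negative libraries. Microglial markers were lower in 2 of 5, summing to 573 to 1377 in Xist-positive and 1408 to 3929 in Xist-negative libraries, and markers of endothelium and choroid plexus in 3 of 4, summing to 266 to 1565 in Xist-positive and 702 to 2203 in Xist-negative libraries; their part in these differences, and that of the lower number of genes detected, was not tested.

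The makeup of the gamma and alpha clusters differed more between the sets than between the ages. Per kilobase, Pcdhgc4 held 48.4 ± 11.3% of the gamma level in Xist-positive and 11.3 ± 4.50% in Xist-negative libraries (SD, n = 7 each). By age it held 46.6% in aged and 53.0% in young Xist-positive libraries, and 10.1% in aged and 11.7% in young Xist-negative libraries. Pcdhgc4 had the highest per-kilobase level of all members in 7 of 7 Xist-positive libraries, and Pcdhga5 in 7 of 7 Xist-negative libraries. In aged library 7 the levels lay close, at 346 for Pcdhgc4 and 336 for Pcdhga5. The lengths used include the shared constant exons, and the order by library was not examined without them. The share of Pcdhga5 in the gamma level was 16.2 to 35.6% in Xist-positive and 26.5 to 46.4% in Xist-negative libraries. Pcdha8 held 67.1 ± 9.69% of the alpha level in Xist-positive and 37.4 ± 8.22% in Xist-negative libraries, with 64.4% in aged and 73.9% in young Xist-positive libraries and 35.1% in aged and 38.3% in young Xist-negative libraries. These shares are descriptions without a test.

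**Figure D5:**
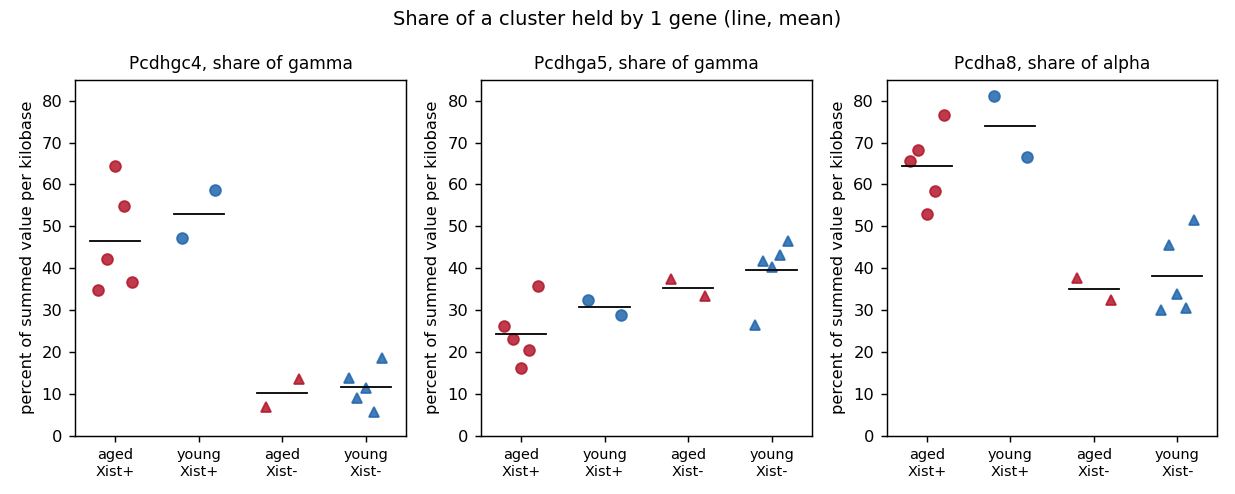
Percent of the summed per-kilobase level of the gamma cluster held by Pcdhgc4 and Pcdhga5, and of the alpha cluster held by Pcdha8, in each library by age and library set; lines are means. The Pcdhgc4 share is 34.7 to 64.3% in Xist-positive and 5.72 to 18.6% in Xist-negative libraries, with little difference by age inside a set.

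Genes that act on or beside the clusters were described from lists. None of them passed an adjusted p of 0.05 for age in limma in either fit. Of 21 tested genes for promoter choice and cluster chromatin (CTCF, cohesin, DNA and histone methylation), 10 had a difference above 0 (median -0.10), with 2 higher and 2 lower in aged libraries at an unadjusted p under 0.05 (6.5% and 17.6% of all genes were). Ctcf, whose protein bridges the chosen promoter and its enhancer, averaged 2417 in aged and 1403 in young libraries, which gave 0.93 (limma adjusted p = 0.182), or 0.35 with the library set (adjusted p = 0.394). Setdb1, a histone methyltransferase that acts on the chromatin of the clusters, had a difference of -0.34, and Tet3, an enzyme of DNA demethylation, of -0.39. With the library set 3 of the 21 differences were above 0 (median -0.20), against 37.5% of all genes, and 0 were higher and 5 lower at an unadjusted p under 0.05 (4.03% and 9.03% of all genes were). The signalling and binding partners, 24 genes, had 15 differences above 0 (median 0.07), against 37.2% of all genes. Among them were Rac1, a small GTPase of dendrite growth, at 1.15, the kinase Fyn at 0.93 and Rock1 at 0.64. With the library set these differences were 0.72, 0.46 and 0.18.

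Other members of the cadherin superfamily gave no common direction, next to 37.2% of all genes with a difference above 0. Of 12 non-clustered protocadherins, encoded singly elsewhere in the genome, 9 had a difference above 0 (median 0.27). Pcdh7 averaged 28874 in aged and 12132 in young libraries (difference 1.33, limma adjusted p = 0.182, and 0.72 with the library set). The differences of Pcdh10 and Pcdh12 were 0.64 and -2.93, or 0.47 and -1.41 with the library set. Of 15 type I and II cadherins 9 were above 0 (median 0.15), and Cdh22 averaged 2195 in aged and 911 in young libraries (difference 1.18, limma adjusted p = 0.14). Cdh1 and Cdh24 went the other way, at -1.33 and -0.83. With the library set the differences of Cdh22, Cdh1 and Cdh24 were 0.98, -0.40 and -0.37. All but 1 of the 9 FAT, dachsous and CELSR cadherins, the large cadherins of planar cell polarity, were below 0 (median -0.74). Of these 9, 0 were higher and 4 lower at an unadjusted limma p under 0.05 (6.5% and 17.6% of all genes were). The non-clustered protocadherins had 3 higher and 1 lower there, and the type I and II cadherins 1 and 1. Celsr3, which guides axon tracts, averaged 538 in aged and 1027 in young libraries (difference -0.91, and -0.81 with the library set). Of the 14 tested genes that flank the clusters or lie between them, 8 were above 0 in each fit (medians 0.16, and 0.07 with the library set), next to -0.25 and -0.16 over all genes.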

How the data were processed

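Groups were taken from the labels (7 aged, 7 young), and libraries keep their title numbers. RNA was extracted with TRIzol and chloroform and SmartSeq libraries were made, per the labels' protocols. The submitters' processing notes name STAR, kallisto, DESeq2 and mm10, with neither role nor version, and strand use is not stated in the material used here. The authors deposited a normalized signal per gene: its median ratio to the geometric mean is 1.0232 to 1.0234 in each library over 18245 genes. A row without a gene name, 0.043 to 0.221% of a library, was left out. The authors' log2 fold change with its standard error, their test score (a statistic), and their p-value and adjusted p-value were deposited beside these and are used only where named; their p is a chi-square tail probability at 1 degree of freedom.

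Values were compared as log2(value + 1) with limma 3.58.1 (R 4.3.3, eBayes with a mean-variance trend) on genes at 1 or more in at least 7 libraries, with Benjamini-Hochberg adjustment over all of them. Count models were not used because the values are not counts. The script was tested on simulated data. There 16% of 2-fold changes were called with age alone and 20.4% with the library set. For 4-fold changes it was 46.4% and 51.2%, so a member that did not pass may still differ. Library sets came from Xist (above or below 100). Tables were handled in Python 3.11.15 with pandas 2.3.3. Exon lengths and coordinates come from GENCODE M21 on mm10. Members named are, per cluster, those with the smallest age p and the highest mean, and any that the authors' table called; others are said to be chosen after their values were seen, as were the 12 members and the 8 non-overlapping members of the library-set results. The members and all lists were chosen with earlier results of these data known. Other genes of the clusters are not analysed here. Alternatives covered scaling, pseudocount, filter, trend, library weights, library set and leaving out each library.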

Additional observations from a re-analysis of the deposited data

Results flagged for a closer look

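In 46 group-wise checks of the named members and cluster sums, 7 had a highest library far from the other 6 of its group. No lowest library stood apart. The cut-off flags about 1 in 20 groups of independent, normally distributed values. The groups mix the library sets and the checks share libraries, so the count cannot be judged against that rate. Aged library 12 was the highest aged library for Pcdhga7 (796), for Pcdhgb5 (32.4) and for the summed gamma genes (6929). Pcdhb18 stood apart in aged library 13 at 58.1, where the 5 Xist-positive aged libraries read 0 to 1.98. Among young libraries, number 19 held the highest Pcdhb18 (220) and the highest Pcdhgb5 (144), and number 18 the highest Pcdha5 (145). In Pcdhb18 and Pcdhgb5 the aged libraries that stood apart belong to the smaller, Xist-negative part of their group.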

How the results depend on the processing

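No paired analysis was made because the sources used here name no pairs. Title number 3 occurs in both groups but is not stated to mark a pair. No member was called for age with any one library left out, with another pseudocount, filter or scaling, or without the trend. Called members numbered 1 in the Xist-positive libraries alone, 1 by the authors' adjusted p, 3 by an unadjusted p under 0.05 and 10 (5 higher, 5 lower) with array weights, where 53.1% of all genes passed. Leaving out 1 library moved the median difference between 0.00 (without aged library 13) and 0.36 (without aged library 7) for alpha, which 9 of the 14 libraries moved by over 1.5 times, and between 0.32 and 0.49 for beta. For gamma it was 0.11 without young library 2, 0.16 without aged library 12, and 0.54 without aged library 6 or young library 18. The alpha median was -0.10 in Xist-negative and 0.16 in Xist-positive libraries. The beta median was 0.068 in Xist-negative and 0.61 in Xist-positive libraries, and the gamma median 0.91 and 0.16. All genes had medians of -0.15 and -0.13 there. With equal upper quartiles the alpha, beta and gamma medians were -0.027, 0.20 and 0.16, a scaling that moved the median of all genes to -0.45. With array weights the gamma median was -0.34. The median number of genes detected, aged minus young, was -2 over all libraries, 4 in Xist-positive and 1 in Xist-negative libraries. The aged over young ratio of the alpha sum was 1.21, and 0.952 in Xist-negative libraries. For beta it was 1.30, 1.12 with equal upper quartiles and 1.56 in Xist-positive libraries. For gamma it was 1.28, and 1.51 in Xist-negative libraries. In Xist-positive libraries gamma sums lay closer, at a mean of 4670 in aged and 4228 in young libraries. With equal upper quartiles alpha sums averaged 1314 in aged and 1264 in young libraries, and gamma sums 4808 and 4221. A library-set term turned the sign of 8 of the 43 members. Among the members named by rule these were Pcdha8 (-0.11), Pcdha3 (0.092) and Pcdhga5 (0.11). In Xist-negative libraries the sign of members named by rule turned for Pcdha8 (-0.25), Pcdha7 (-0.0905), Pcdhb17 (-0.23), Pcdhgb2 (1.03) and Pcdhga5 (0.45). In Xist-positive libraries it turned for Pcdha3 (0.29), Pcdhb18 (0.32) and Pcdhgc4 (-0.071). Leaving out 1 library moved Pcdha3 between -0.40 and 0.10, the last without aged library 7. The cause of these changes was not tested. Count-based alternatives (edgeR, DESeq2, TMM) were not run because the values are not counts. The library-set difference called 16 to 20 members with 1 library left out, against 19 with all libraries, where 15.5% of all genes were higher and 36.5% lower. The set-based fits with a library left out were chosen after seeing the data. Depth is unknown, so values near 0 cannot be told from no expression.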
